A study of Homo sapiens with 6 samples.

Results

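Histone genes measured were 52 of the 19775 named genes, read on 76 of the 54613 probe sets tested on Affymetrix Human Genome U133 Plus 2.0 arrays. They are all probe sets that the array annotation gives to exactly 1 gene with a listed current symbol. Listed were the numbered H1 genes, the clustered H2AC, H2BC, H3C and H4C genes, and replacement variants (H2AZ1, H2AZ2, H2AX, H2AJ, MACROH2A1, MACROH2A2, H3-3A). Of the H1 genes, H1-1 to H1-6 were counted with the clustered genes, H1-7 and H1-8 as germ cell H1 and H1-10 as a replacement variant. The symbols were chosen by name and not by how the genes behaved, though earlier results of these data were known. The RefSeq gene table (GRCh38.p14) holds 81 genes with such symbols, so that 29 had no probe set of their own. Of these, 20, among them H3-3B, H2BC8 and H2AC18, were read only on probe sets shared by several genes.

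One array per culture compared drug-tolerant persisters (DTPs), which are cells that outlast erlotinib, an inhibitor of the EGFR kinase, with untreated parental cells of the same line, 3 arrays each. The line was PC9, a non-small cell lung cancer line with an activating EGFR mutation, and the cells of both groups carried a stably integrated GFP vector. The labels' protocol has DTPs collected on day 10 after 9 days in 2 µM erlotinib begun at 80% confluency, and parental cells in DMSO on day 3 at 100% confluency, whereas the design text of the series and the methods of the study give both treatments 9 days. Drug, culture time and density therefore cannot be told apart, nor can survival of a subset of cells be told apart from a change within cells. In such bulk samples fewer cells with a transcript and less of it per cell cannot be told apart either.

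Histones are the proteins around which DNA is wound. H2A, H2B, H3 and H4 form the core of the nucleosome and H1 binds the DNA between cores. Most copies are made in S phase from clustered, replication-dependent genes, whose mRNAs normally end in a stem-loop that is bound by SLBP and carry no poly(A) tail. Most replacement variants are encoded by separate genes with polyadenylated mRNAs and are made throughout the cell cycle. Labelling for these arrays starts at poly(A) tails, so the values of the clustered genes are those of the RNA that this priming reached, and polyadenylated and stem-loop forms cannot be told apart on them.

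A subset of the clustered genes was higher in DTPs, by log2 fold changes of 0.72 to 2.99, and the others lay between -0.23 and 0.56. A probe set was called where limma's adjusted p was under 0.05 and the fold was over 1.5. Of the 76 histone probe sets 14 were called higher in DTPs, which is 18.4%, against 7.56% of all probe sets tested, and 1 was called lower, against 4.93% of all. The 14 were 12 of the 48 probe sets of replication-dependent genes (25.0%) and 2 of the 24 probe sets of replacement variants, both of MACROH2A1. No replication-dependent probe set was called lower by limma, and 3 were lower at an unadjusted p under 0.05. The 1 lower was the H1 variant H1-10. None of the 4 probe sets of the germ cell linker histones H1-7 and H1-8 was called (log2 fold changes -0.21 to 0.01, none with an unadjusted limma p under 0.05). With 1 probe set per gene, 9 of the 52 genes were called higher, against 8.08% of all genes, and 1 lower, against 6.13%. The probe set that stood for a gene in that fit was the second one of H3C6 and an uncalled one of MACROH2A1, so neither gene was called there.

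**Figure D1:**
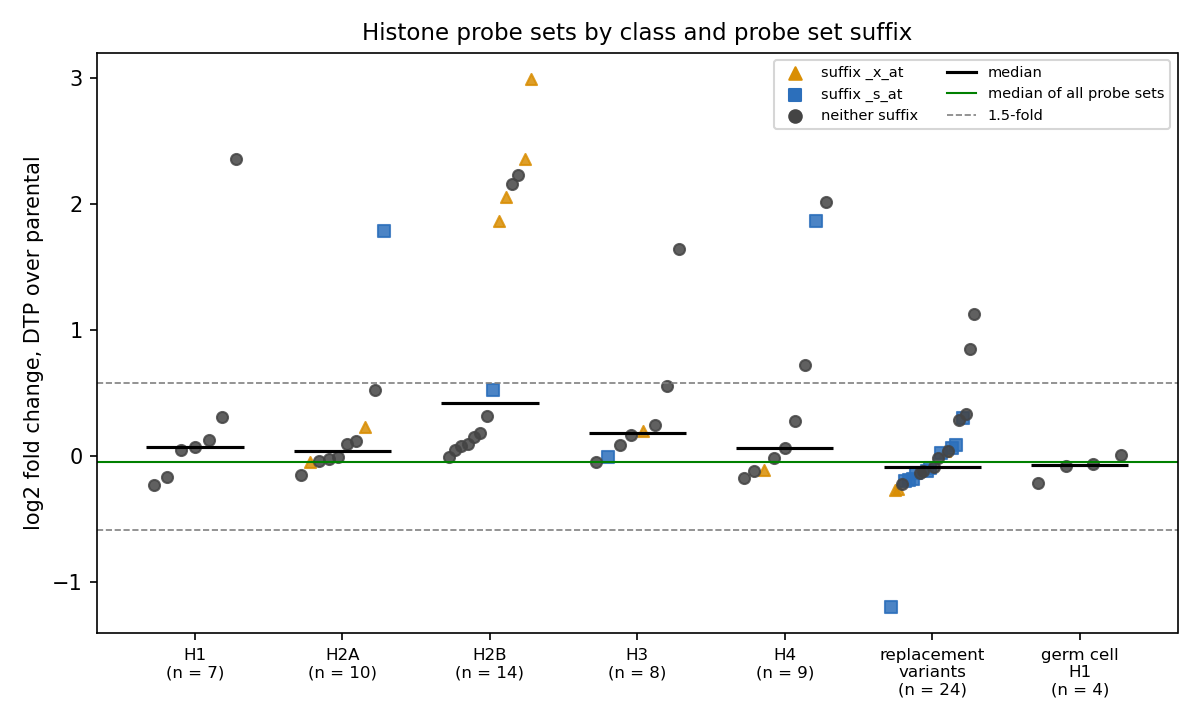
Log2 fold change (DTP over parental, vertical axis) of each of the 76 histone probe sets, by histone class for replication-dependent genes and then for replacement variants and germ cell H1. Symbols give the probe set suffix, black bars the median of each class, the green line the median of all probe sets and the dashed lines 1.5-fold. Each replication-dependent class has at least 1 probe set above a log2 fold change of 1.5 while most lie near 0, and in H2B 6 of 14 are above 1.5-fold.

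The median log2 fold change over the 48 replication-dependent probe sets was 0.14, against -0.05 over all probe sets, and the values lay between -0.23 and 2.99. On 20 of the 48 all DTP arrays were above all parental arrays, against 22.4% of all probe sets, and on 4 all were below, against 27.5%. Many of these probe sets were dim. On 29 of the 48 both group means were below the median of all probe sets (7.29), against 25874 of all 54613 probe sets tested. None of these 29 was called by limma, against 1100 of the 25874. An unadjusted limma p under 0.05 was found on 9 of the 29, against 8101 of the 25874. A probe set raised above the median in DTPs is by definition not among the 29. Of the 12 called, 6 had a parental mean below that median, against 1594 of the 4129 called higher over all probe sets. Robust multi-array averaging (RMA) gives no detection call, so a fold from such a parental value may understate the difference.

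The called replication-dependent genes, counted where any of their probe sets was called, were 10 of 42. They were the H2B genes H2BC4, H2BC5, H2BC6, H2BC9 and H2BC12, the linker histone gene H1-2, H2AC6, H3C6, H4C5 and H4C8. By the same count 2364 of the 20876 symbol entries of all probe sets, shared entries included, were called higher. Single calls in a class, as described below for H1, H2A and H3, are near that share. All 10 were called higher. These 10 genes lie in the histone clusters of chromosome 6, as do 40 of the 42 measured. Their promoters are shown because several of these genes were higher together, with an uncalled H2B gene, H2BC14, for comparison. Each sequence is from RefSeq (GRCh38.p14), 250 bases before to 50 bases after the start of the gene, on the strand of the gene. Capitals mark, on either strand, the letters CCAAT, the letters TATAAA, the octamer ATTTGCAT known from H2B promoters and the letters AAACACAA known from H1 promoters. Marked letters may overlap.
H2BC5, chr6:26157871-26158170, plus strand: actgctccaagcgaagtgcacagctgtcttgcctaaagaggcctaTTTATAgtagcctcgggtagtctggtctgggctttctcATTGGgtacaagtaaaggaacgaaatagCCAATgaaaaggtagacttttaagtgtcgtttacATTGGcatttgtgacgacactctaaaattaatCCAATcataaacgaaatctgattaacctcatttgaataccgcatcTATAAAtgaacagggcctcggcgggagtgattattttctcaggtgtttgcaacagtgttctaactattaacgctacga
H2BC12, chr6:27146809-27147108, minus strand: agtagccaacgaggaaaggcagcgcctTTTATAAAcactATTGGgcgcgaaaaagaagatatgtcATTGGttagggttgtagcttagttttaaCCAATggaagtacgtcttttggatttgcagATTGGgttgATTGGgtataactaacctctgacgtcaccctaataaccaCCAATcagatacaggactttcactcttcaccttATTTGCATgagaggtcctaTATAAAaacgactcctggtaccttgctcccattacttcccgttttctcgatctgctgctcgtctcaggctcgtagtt
H2AC6, chr6:26123922-26124221, plus strand: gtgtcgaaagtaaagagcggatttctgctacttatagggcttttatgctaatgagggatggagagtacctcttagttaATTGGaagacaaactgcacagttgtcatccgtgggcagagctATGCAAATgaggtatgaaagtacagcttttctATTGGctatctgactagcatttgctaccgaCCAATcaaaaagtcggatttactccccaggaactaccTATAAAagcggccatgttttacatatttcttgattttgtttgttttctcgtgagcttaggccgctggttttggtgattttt
H1-2, chr6:26056421-26056720, minus strand: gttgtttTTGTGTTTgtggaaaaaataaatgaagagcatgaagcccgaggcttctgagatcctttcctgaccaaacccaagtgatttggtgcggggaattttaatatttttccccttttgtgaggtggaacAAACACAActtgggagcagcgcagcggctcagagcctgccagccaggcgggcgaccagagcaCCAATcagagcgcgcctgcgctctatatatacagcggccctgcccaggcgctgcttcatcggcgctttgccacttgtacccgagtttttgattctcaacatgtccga
H4C8, chr6:26285485-26285784, minus strand: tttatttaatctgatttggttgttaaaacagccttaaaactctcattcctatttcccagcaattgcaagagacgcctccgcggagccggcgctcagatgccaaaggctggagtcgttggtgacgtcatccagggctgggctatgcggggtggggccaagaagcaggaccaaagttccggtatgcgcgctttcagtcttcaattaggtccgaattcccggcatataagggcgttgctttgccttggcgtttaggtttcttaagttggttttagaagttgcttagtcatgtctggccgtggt
H2BC14, chr6:27814772-27815071, plus strand: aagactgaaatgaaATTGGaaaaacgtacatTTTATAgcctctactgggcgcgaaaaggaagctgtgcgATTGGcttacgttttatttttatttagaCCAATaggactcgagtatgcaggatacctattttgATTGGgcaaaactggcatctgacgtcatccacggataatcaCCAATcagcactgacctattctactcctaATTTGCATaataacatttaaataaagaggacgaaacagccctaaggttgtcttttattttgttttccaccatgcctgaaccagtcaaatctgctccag

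A promoter was held for 40 of the 42 replication-dependent genes. CCAAT was in 35 of the 40, against 34.6% of all 35116 promoters, and in 8 of the 10 called genes and 27 of the 30 others. TATAAA was in 27 of the 40, against 11.5% of all promoters, and in 6 of the 10 called genes and 21 of the 30 others. The octamer was in 10 of 13 H2B promoters and 6 of 8 H2A promoters, against 1.77% of all promoters. Among H2B genes it was in 4 of the 5 called, H2BC5 being the one without, and in 6 of the 8 others, H2BC14 among them. AAACACAA was in 4 of 6 H1 promoters, against 1.55% of all, in H1-2 and in 3 of the 5 uncalled H1 genes. A match of letters is a description of the window and not a binding site. None of the 4 letter motifs was held by called genes alone.

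H2B was the class with the most called genes, 5 of 13. H2BC12 had log2 values of 13.06, 13.08 and 13.14 in DTPs, against 10.84, 10.80 and 10.94 in parental cells. The groups lay far apart, by a log2 fold change of 2.24 ± 0.07 (SE, n = 3 per group), or 4.71-fold, with a limma adjusted p of 9.4e-10. H2BC4 had 8.07, 8.44 and 8.40 in DTPs, against 5.92, 6.23 and 6.26 in parental cells. All DTP arrays of H2BC4 were above all parental arrays, by 2.16 ± 0.12 (limma adjusted p 5.2e-08). The probe sets of both genes carry neither the suffix _x_at, given to probes that may hybridize to further transcripts, nor _s_at, given to probes common to several transcripts.

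The remaining called H2B probe sets carry the suffix _x_at, and near-identical H2B transcripts can reach them, so their values may not belong to the named gene alone. One probe set of H2BC5 had 11.52, 11.55 and 11.61 in DTPs, against 8.46, 8.59 and 8.65 in parental cells, a log2 fold change of 2.99 ± 0.07 (7.95-fold, limma adjusted p 1.5e-10). This was the largest difference among the 76 histone probe sets. The other H2BC5 probe set had 11.42, 11.51 and 11.37 in DTPs, against 9.54, 9.59 and 9.58 in parental cells, and a log2 fold change of 1.86 ± 0.07. H2BC9 had 9.63, 9.59 and 9.55 in DTPs, against 7.21, 7.20 and 7.29 in parental cells, 2.36 ± 0.07 apart. Within each group the arrays were close to each other and between groups they did not overlap. H2BC6 had 10.70, 10.77 and 10.67 in DTPs, against 8.73, 8.68 and 8.56 in parental cells, 2.06 ± 0.07 apart.

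The 8 H2B genes with no call were H2BC1, H2BC3, H2BC11, H2BC13, H2BC14, H2BC15, H2BC17 and H2BC21. Their log2 fold changes lay between -0.01 (H2BC11) and 0.53 (H2BC21). All but H2BC21 had both group means below the median of all probe sets, so a difference in them may have been missed. The probe sets shared by H2BC11 and H2BC8, which are not among the 76, were called higher (1.855 and 2.258). H2BC21, which lies in the chromosome 1 cluster, had 7.72, 7.69 and 7.61 in DTPs, against 7.11, 7.15 and 7.17 in parental cells. Its groups did not overlap and its limma adjusted p was 8.5e-05, but its fold, 1.44, was under the minimum. H2BC14 (0.32, limma adjusted p 0.0071) was likewise past the adjusted p alone.

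**Figure D2:**
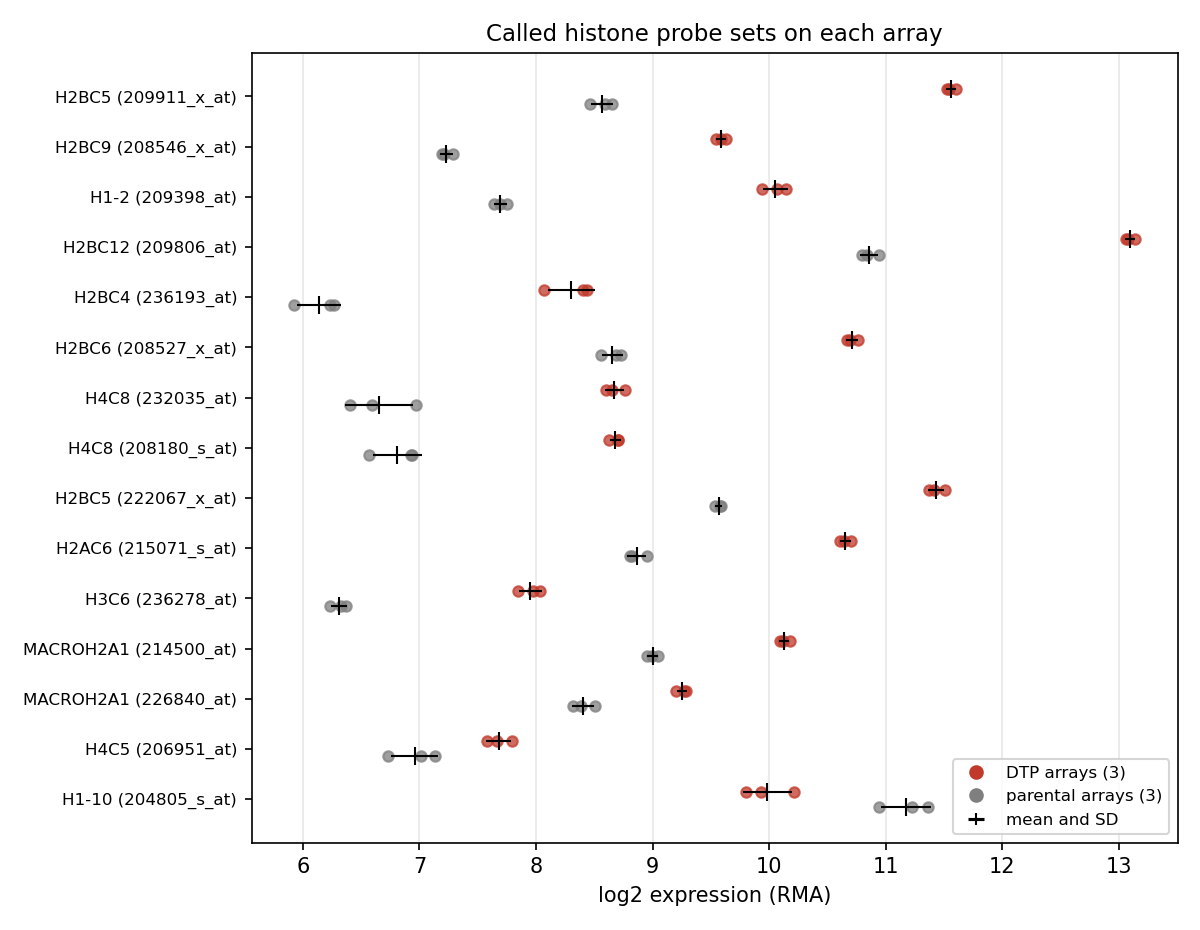
Log2 expression (RMA, horizontal axis) of the 15 called histone probe sets on each of the 3 DTP arrays (red) and 3 parental arrays (grey), with the mean and SD of each group. Rows run by log2 fold change, with H2BC5 at 2.99 at the top and H1-10 at -1.19 at the bottom, and in no row do the groups overlap.

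Of the 6 replication-dependent H1 genes, which encode linker histones, H1-2 was the 1 called. H1-2 had 9.94, 10.15 and 10.07 in DTPs, against 7.64, 7.69 and 7.75 in parental cells. All DTP arrays were above all parental arrays, by 2.36 ± 0.08 (5.13-fold, limma adjusted p 1.1e-09), on a probe set with neither suffix. The other 5 genes, H1-1, H1-3, H1-4, H1-5 and the testis gene H1-6, had log2 fold changes between -0.23 (H1-1) and 0.32 (H1-3), and all their group means were below 7.29. Among the 8 H2A genes, H2AC6 was the 1 called. H2AC6 had 10.61, 10.71 and 10.64 in DTPs, against 8.83, 8.81 and 8.96 in parental cells, and the groups were 1.79 ± 0.07 apart (limma adjusted p 5.4e-09). Its probe set carries the suffix _s_at. The other H2A genes, H2AC4, H2AC8, H2AC14, H2AC15, H2AC16, H2AC17 and H2AC25, lay between -0.15 (H2AC25) and 0.52 (H2AC8, limma adjusted p 0.0013, fold 1.44).

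H2A and H2B genes often lie head to head and share the sequence between them. The promoter windows of 4 such pairs of measured genes overlapped, by 255 to 293 bases. The pair H2AC6 and H2BC4 shared 255 bases, the H2AC6 promoter printed above read on the opposite strand, and both genes were called higher, with log2 fold changes of 1.79 (H2AC6) and 2.16 (H2BC4). In the other 3 pairs neither gene was called. H2AC14 and H2BC14 had 0.23 and 0.32, H2AC15 and H2BC15 at most 0.10 and 0.18, and H2AC17 and H2BC17 0.12 and 0.08. Both genes of each pair thus lay on the same side of the fold minimum. In the 3 uncalled pairs, however, all genes but H2AC14 had both group means below the median of all probe sets. Of all 42 replication-dependent genes 32 had no call, so pairs without a call say little about shared promoters.

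Among 7 H3 genes, which encode the core histone whose tail carries many of the known chromatin marks, H3C6 was the 1 called, on 1 of its 2 probe sets. That probe set had 7.97, 8.04 and 7.85 in DTPs, against 6.33, 6.37 and 6.24 in parental cells, 1.64 ± 0.08 apart (3.12-fold, limma adjusted p 1.6e-08). The second had 8.52, 8.61 and 8.46 in DTPs, against 8.09, 7.86 and 7.96 in parental cells. The groups of the second did not overlap either, but its log2 fold change of 0.56 ± 0.08 (limma adjusted p 1.9e-04) was under the fold minimum. H3C1, H3C2, H3C3, H3C7, H3C8 and H3C11 lay between -0.05 (H3C11) and 0.25 (H3C3), and none passed the adjusted p in the fit over probe sets. In the fit over genes H3C8 did (limma adjusted p 0.047), below the fold minimum.

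Of the 8 H4 genes 2 were called. The first probe set of H4C8 had 8.60, 8.65 and 8.76 in DTPs, against 6.40, 6.59 and 6.97 in parental cells, a log2 fold change of 2.02 ± 0.12 (limma adjusted p 1.5e-07). Its second probe set, which carries the suffix _s_at, had 8.62, 8.71 and 8.71 in DTPs, against 6.93, 6.94 and 6.57 in parental cells, 1.87 ± 0.10 apart. Both probe sets of H4C8 thus gave the same direction and a like size, with a wider spread among the parental arrays. H4C5, named after its values were seen, had 7.67, 7.79 and 7.58 in DTPs, against 7.01, 7.13 and 6.73 in parental cells, 0.72 ± 0.10 apart (1.65-fold, limma adjusted p 1.6e-04). H4C1, H4C4, H4C7, H4C9, H4C11 and H4C13 lay between -0.17 (H4C13) and 0.28 (H4C4, limma adjusted p 0.049).

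Calls were found on every kind of probe set. Among replication-dependent genes 4 of 8 probe sets with _x_at, 2 of 4 with _s_at and 6 of 36 with neither suffix were called higher, the last a share of 16.7%. Over all probe sets tested the shares called higher were 6.58% with _x_at, 9.88% with _s_at and 6.99% with neither. The 4 called _x_at probe sets were all those of H2B genes, while the _x_at probe sets of H2AC14, H2AC25, H3C8 and H4C11 had log2 fold changes of 0.23, -0.04, 0.20 and -0.11 and no call. Without the 8 _x_at probe sets the median of the replication-dependent group was 0.11. Without H2B it was 0.09, with 6 of 34 probe sets called higher.

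The RefSeq table lists more than 1 transcript for 4 of the 42 measured replication-dependent genes, H2BC4, H2BC5, H2BC12 and H3C6, and all 4 were called, whereas 6 of the 38 genes with 1 transcript were. These 4 genes span 3296 to 13229 bases in the table, while the 6 called genes with 1 transcript span 409 to 731 bases, within the range of the uncalled genes. Of the 5 genes that span over 1000 bases, 4 were called and H2BC21 was not. These counts are a description, and which transcripts of these genes the probes read was not tested.

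**Figure D3:**
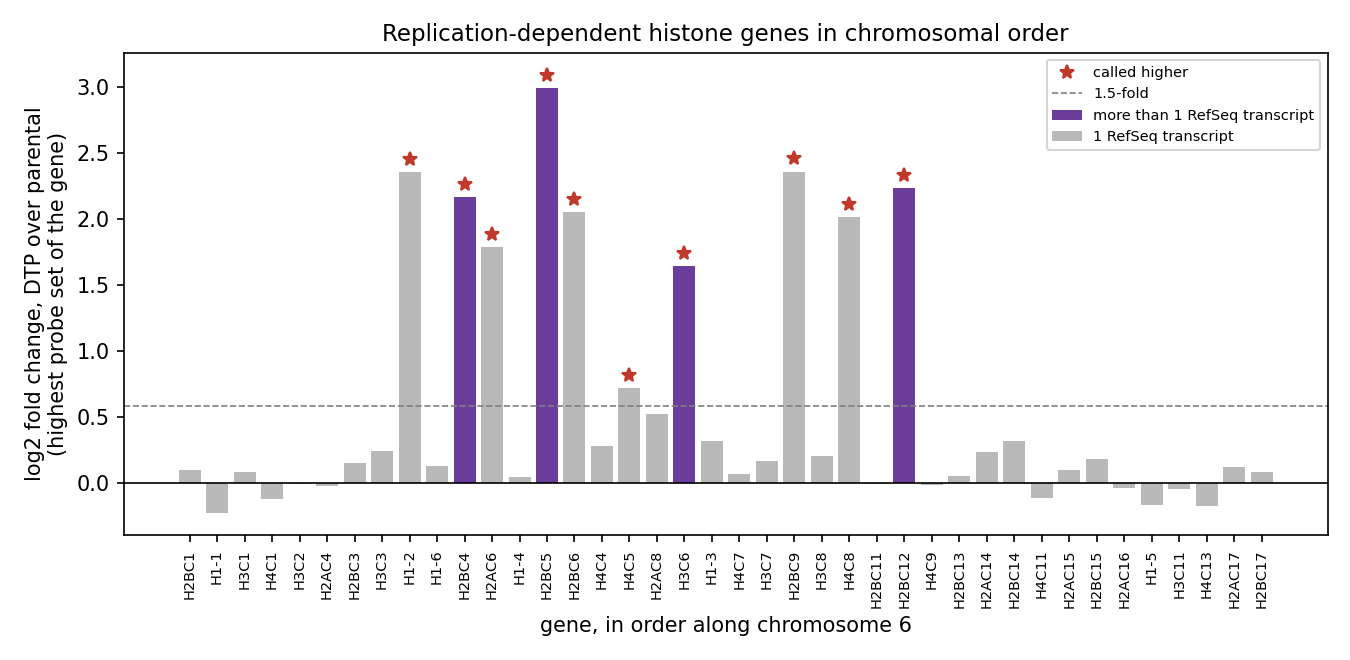
Log2 fold change (DTP over parental, vertical axis; the highest probe set of each gene) of the 40 replication-dependent histone genes measured on chromosome 6, in their order along the chromosome (horizontal axis). Purple bars are genes with more than 1 RefSeq transcript, stars mark called genes and the dashed line 1.5-fold. The called genes H2BC4 and H2AC6 are neighbours in this order, as are H2BC5 and H2BC6, and the other called genes stand between uncalled ones. The probe sets shown for H2BC5 and H2BC6 carry the suffix _x_at.

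In the order of the RefSeq table along chromosome 6, 9 of the 25 genes up to and including H4C8 were called, and 1 of the 15 genes after it, H2BC12. That division was made at a called gene after the values were seen, so it is a description and was not tested. The 2 genes on chromosome 1, H2BC21 and H2AC25, were not called. Called genes had both called and uncalled neighbours among the measured genes. H2BC4 lies next to H2AC6, and H2BC5 next to H2BC6. The probe sets of H2BC5 and H2BC6 carry the suffix _x_at, so their values may not belong to each gene alone. H1-4, with a log2 fold change of 0.05, lies between H2AC6 (1.79) and H2BC5 (2.99), and H3C8 (0.20) between H2BC9 (2.36) and H4C8 (2.02).

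Most replacement variants differed by less than the fold minimum. Over their 24 probe sets the median log2 fold change was -0.09, against -0.05 over all probe sets, and 0.061 against 0.10 with the arrays centred on hybridization spike-ins, under which H2AZ1 (0.034), H2AZ2 (0.056) and MACROH2A2 (0.066) also turned sign on the probe sets described here. All DTP arrays were above all parental arrays on 5 of the 24 and below on 8 (33.3%), against 22.4% and 27.5% of all probe sets. H2A.Z, encoded by H2AZ1 and H2AZ2, is an H2A variant found near active promoters. H2AZ1 had 13.48, 13.47 and 13.52 in DTPs, against 13.61, 13.61 and 13.59 in parental cells. The groups did not overlap, but the log2 fold change was -0.11 ± 0.07 and missed the threshold (limma adjusted p 0.20). H2AZ2 had 11.87, 11.90 and 12.04 in DTPs, against 12.07, 11.99 and 12.03 in parental cells, which overlapped (-0.09 ± 0.07, limma adjusted p 0.36). Its other 3 probe sets lay between -0.02 and 0.33, and 2 of them passed the adjusted p below the fold minimum, at 0.31 and 0.33, so that the probe sets of H2AZ2 disagreed in sign.

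H2AX is the variant that is phosphorylated at DNA breaks. It had 11.20, 11.24 and 11.48 in DTPs, against 11.50, 11.51 and 11.50 in parental cells. The DTP arrays were all lower, the third by little, and the difference of -0.20 ± 0.08 missed the threshold (limma adjusted p 0.081). The other 3 probe sets of H2AX lay between -0.19 and 0.04. H2AJ, a further H2A variant, had 6.67, 6.58 and 6.55 in DTPs, against 6.52, 6.65 and 6.50 in parental cells on its probe set without the suffix _x_at that read highest, and these values overlapped (0.04 ± 0.07, limma adjusted p 0.68). That probe set was dim, with both group means below the median of all probe sets. The 2 _x_at probe sets of H2AJ read brighter, with DTP means of 10.52 and 10.46 against parental means of 10.78 and 10.72. On both all DTP arrays were below all parental arrays. Their log2 fold changes were -0.27 and -0.26, past the adjusted p but under the fold minimum.

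MACROH2A1 and MACROH2A2 encode H2A variants with a large additional macrodomain. The 7 probe sets of MACROH2A1 did not agree. One had 10.09, 10.12 and 10.18 in DTPs, against 8.95, 9.05 and 9.00 in parental cells, and was called higher (1.13 ± 0.07, 2.19-fold, limma adjusted p 1.5e-07). A second, named after its values were seen, had 9.29, 9.21 and 9.27 in DTPs, against 8.32, 8.51 and 8.39 in parental cells (0.85 ± 0.07, limma adjusted p 3.1e-06). On both the groups lay apart, whereas the probe set of the gene that read highest had 12.82, 12.76 and 12.88 in DTPs, against 12.74, 12.77 and 12.68 in parental cells, and overlapped (0.09 ± 0.07, limma adjusted p 0.33). The other 4 lay between -0.22 and 0.29. The gene was therefore called on 2 of 7 probe sets, and its level as a whole was not called by the probe set used for the gene. Which transcripts of the gene each probe set reads was not tested. MACROH2A2 had 7.97, 7.98 and 7.90 in DTPs, against 8.11, 7.94 and 8.04 in parental cells (-0.08 ± 0.07, limma adjusted p 0.42), which overlapped.

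H1-10 encodes a linker histone outside the clusters and was the 1 histone gene called lower. It had 9.93, 10.21 and 9.80 in DTPs, against 10.94, 11.36 and 11.23 in parental cells. All DTP arrays were below all parental arrays, by a log2 fold change of -1.19 ± 0.12 (2.29-fold, limma adjusted p 1.1e-05). The direction was opposite to that of the linker histone gene H1-2 on the same arrays. H3-3A encodes the H3.3 variant that is placed outside replication. It had 8.88, 9.66 and 9.56 in DTPs, against 9.74, 9.29 and 9.62 in parental cells, overlapping values with a low first DTP array (-0.18 ± 0.18, limma adjusted p 0.46), and without that array the log2 fold change was 0.061.

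**Figure D4:**
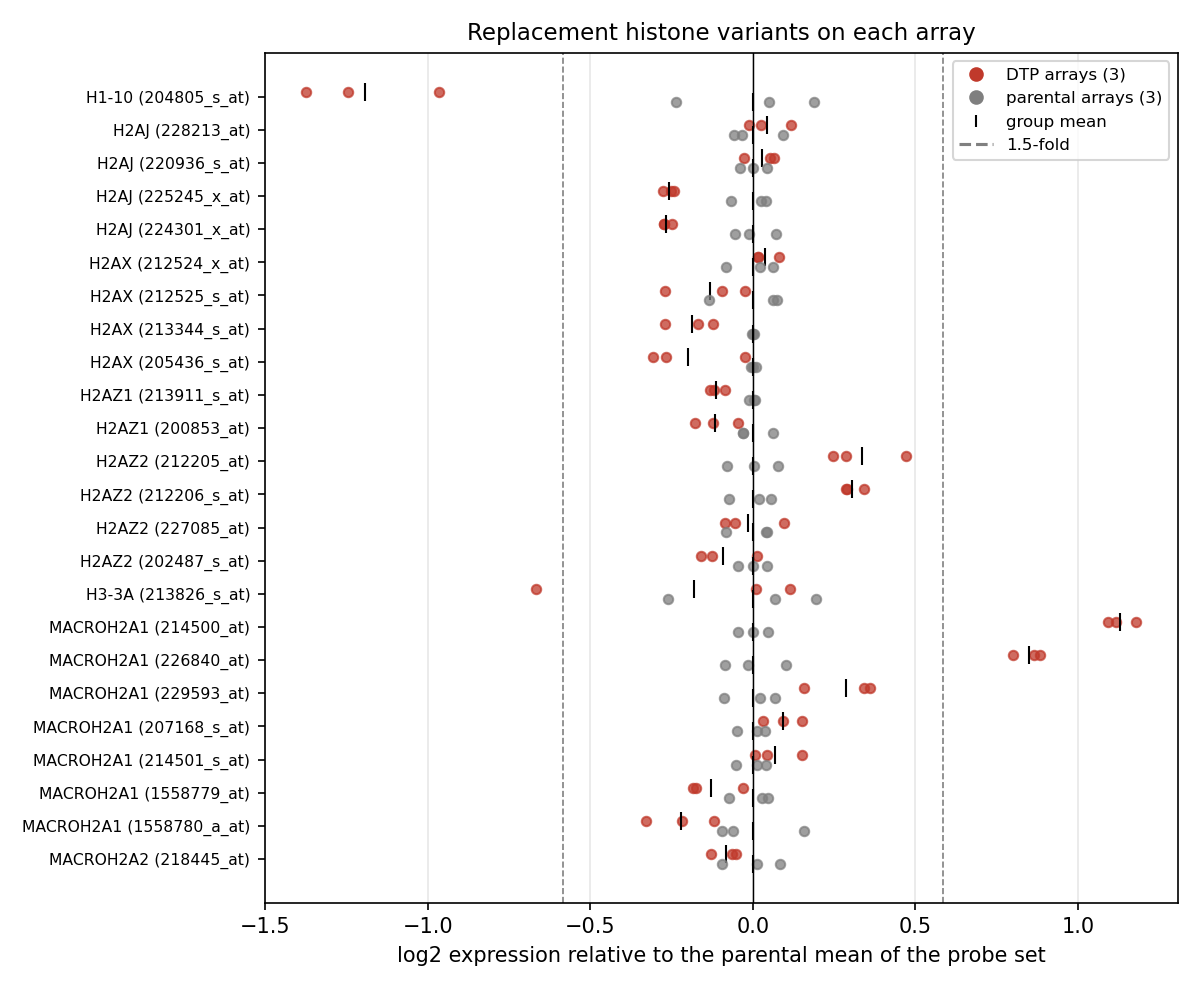
Log2 expression of the 24 probe sets of replacement variants on each of 3 DTP arrays (red) and 3 parental arrays (grey), relative to the parental mean of the probe set (horizontal axis). Bars mark group means and dashed lines 1.5-fold. H1-10 at -1.19 and 2 probe sets of MACROH2A1 at 1.13 and 0.85 lie beyond the lines, and the other 21 group means lie within them, with the first H3-3A array of the DTPs beyond the lower line.

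Of 20 genes for the transcription and 3′ end processing of histone mRNA none was called in limma's fit over genes, against 8.08% of all genes called higher and 6.13% lower, although 13 passed the adjusted p below the fold minimum, against 44.5% of all genes past it at any fold. Of the 13, 7 were higher and 6 lower in DTPs, the same counts as at an unadjusted p under 0.05. SLBP, the stem-loop binding protein, had 11.18, 11.18 and 11.26 in DTPs, against 10.94, 10.81 and 10.84 in parental cells. The groups did not overlap, and the log2 fold change was 0.34 ± 0.07 (1.27-fold, limma adjusted p 0.0012). NPAT, the coactivator of histone genes at S phase entry, had 9.47, 9.42 and 9.54 in DTPs, against 9.26, 9.06 and 9.29 in parental cells (0.27 ± 0.08, limma adjusted p 0.013), but -0.22 where all its probe sets were averaged. Under other settings up to 1 gene of the list was called in each direction.

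Of 29 histone chaperones and nucleosome assembly genes 2 were called lower by limma (6.90%, near the 6.13% of all genes). None was called higher, against 8.08% of all genes. At an unadjusted limma p under 0.05 in the fit over genes, 9 were lower and 5 higher. In the fit over probe sets, which is a different unit, 13978 of all 54613 were lower and 11497 higher. ASF1A, a chaperone that carries H3 and H4, had 10.07, 10.21 and 10.49 in DTPs, against 11.33, 11.28 and 11.30 in parental cells. All DTP arrays were lower, by -1.04 ± 0.09 on the log2 scale (limma adjusted p 1.4e-06). YEATS4, a reader subunit of complexes that place H2A.Z, had 8.15, 8.33 and 8.41 in DTPs, against 9.20, 9.25 and 9.11 in parental cells (-0.89 ± 0.08, limma adjusted p 1.4e-06), also without overlap.

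Of 27 measured S phase genes 3 were called higher and 3 lower (11.1% each), near the shares of all genes, 8.08% and 6.13%. The 3 higher were CCNE2, a cyclin of the G1/S transition (1.83 ± 0.10), GINS1 of the replicative helicase (0.78 ± 0.09) and, outside the rule for named genes, the kinase CDK2 (0.59 ± 0.08). CCNE2 had 8.61, 8.62 and 8.65 in DTPs, against 6.93, 6.94 and 6.51 in parental cells, with a limma adjusted p of 1.7e-08. GINS1 had 10.08, 10.12 and 10.41 in DTPs, against 9.55, 9.34 and 9.38 in parental cells. Both were higher on all DTP arrays. The 3 lower were the primase gene PRIM1 (-0.72 ± 0.08) and the origin licensing genes CDT1 (-0.71 ± 0.10) and CDC6 (-0.62 ± 0.08). PRIM1 had 9.49, 9.48 and 9.76 in DTPs, against 10.35, 10.23 and 10.32 in parental cells. CDT1 had 8.80, 8.99 and 8.90 in DTPs, against 9.39, 9.77 and 9.66 in parental cells. CDC6 had 9.59, 9.71 and 9.89 in DTPs, against 10.37, 10.35 and 10.33 in parental cells. In none of the 3 did the groups overlap. The median log2 fold change of the list was 0.06. With the arrays centred on hybridization spike-ins the 3 lower ones were between -0.47 and -0.57 and no longer called, CDC6 lost its call without DTP replicate 1 (-0.55), and CDK2 lost its call without DTP replicate 2 (0.56), DTP replicate 3 (0.58) or parental replicate 3 (0.53). CDT1 was not called with the brightest of all its probe sets (-0.26, limma adjusted p 0.098) or with all of them averaged (-0.49), CDC6 not with ribosomal protein centring (-0.56), and CDK2 not with array weights (0.58) or with all its probe sets averaged (0.35).

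Some measures of the arrays themselves moved with the groups, and their part in the results was not tested. The 3′ minus 5′ log2 difference of the GAPDH control probe sets, a measure of RNA integrity and labelling, was -0.18, -0.17 and -0.18 on DTP arrays, against -0.17, -0.15 and -0.14 on parental arrays. For ACTB it was 0.03, 0.08 and 0.06 on DTP arrays, against 0.19, 0.17 and 0.14 on parental arrays. Both were lower in DTPs with no overlap (two-sided exact permutation p 0.10 each, the smallest that 3 against 3 allows), by 0.02 and 0.11. Of 10 markers of epithelial lung cancer cells 9 were above the median of all probe sets in each group, the lung factor NKX2-1 being the one below, and KRT7 was called higher in DTPs (0.97) and CLDN7 lower (-0.59). Of 8 measured blood cell markers 3 were above it in DTPs and 2 in parental cells, and none was called by limma (3 had an unadjusted p under 0.05). Of 12 fibroblast markers 3 were above it in DTPs and 4 in parental cells, and 2, COL1A1 (2.67) and MFAP5 (0.98), were called higher in DTPs. The summed log2 level of the 12 was 83.2 to 84.1 on DTP arrays, against 80.1 to 80.9 on parental arrays, while DCN, LUM, PDGFRB and FAP were below the median in both groups. The largest changes in this sum were those of COL1A1 and MFAP5, and the median log2 fold change of the 12 was -0.03.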

How the data were processed

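RNA of 3 DTP and 3 parental PC9 cultures was measured on 1 array each. The authors deposited log2 values per probe set, made by RMA in the affy package per the labels and quantile normalized between arrays. Their versions were not given in the sources used. Quantile normalization hides a change in total mRNA per cell. Depth does not apply to arrays, and their number limits the precision. Array medians lay between 7.27 and 7.32, and correlations across all probe sets were 0.9968 to 0.9979 within groups and 0.970 to 0.975 between groups. The labels do not say whether these cultures were independent, so that p-values cover no more than the spread among these 6 arrays, which may be technical.

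Of 54675 probe sets 62 controls were left out. The annotation gave 1 symbol for 41091, several for 1801 and none for 11721. DTP and parental arrays were compared with limma 3.58.1 (R 4.3.3), using lmFit and eBayes on the groups alone, with two-sided p-values adjusted by Benjamini-Hochberg over all 54613 probe sets. A second fit took 1 probe set per gene, the one with the highest mean without _x_at where there was one, over 19775 genes. Calls needed a fold over 1.5 and an adjusted p under 0.05, as in the study's methods. On simulated data of 54613 probe sets with 200 changed, 36.3% of 1.5-fold, 93.5% of 2-fold and 100% of 4-fold changes were called. A change of exactly 1.5-fold lies at the fold cut, so many such estimates fall under it whatever the precision. Far more probe sets were called in the data, 4129 higher and 2690 lower, which makes the adjusted p less strict there. These shares therefore do not give the sensitivity of the comparison itself.

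Values on every array are given for up to 12 called histone probe sets in each direction by size of change, for the probe set without _x_at that read highest of each replacement variant and each class, and for SLBP, NPAT and up to 5 called genes with the largest change of each pathway list. The members and lists were chosen with earlier results of these data known. RefSeq promoters were matched by symbol for 50 of the 52 genes. Alternatives were the replicate number as a block, each array left out, cyclic loess, centring on ribosomal protein genes or hybridization spike-ins, dim probe sets left out, array weights, robust variances with an intensity trend, no or a higher fold minimum, the methods' t-test and other choices of probe set. For the pathway lists they were added after seeing the data. Python 3.11.15 was used for counts and promoter matches.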

Additional observations from a re-analysis of the deposited data

How the results depend on the processing

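All 15 called histone probe sets remained called, in the same direction, under each other normalization, centring, variance model and left-out array, and 13 of 13 where dim probe sets were left out. With no fold minimum 23 probe sets were higher and 4 lower, and 16 genes higher and 2 lower. The median of the replication-dependent probe sets was 0.29 with spike-in centring, 0.20 with ribosomal protein centring, 0.18 with cyclic loess and 0.11 without _x_at. With each array left out it was 0.13 to 0.19, the highest without DTP replicate 3. Without dim probe sets it was 1.79, which leaves few of its probe sets. The dim filter took the mean of all arrays, so some probe sets passed it only through their DTP values. Both probe sets of H4C8 did so, with parental means of 6.81 and 6.66. The 1.79 and the 13 of 13 are therefore partly set by the filter. The median of the replacement variants was 0.061 with spike-in centring and -0.031 with ribosomal protein centring. With each array left out it was -0.10 to -0.027, the last without DTP replicate 1. Spike-in centring moved the median of all probe sets to 0.10, against -0.05, and relative to it the replacement variants stayed lower. It also turned H2AZ1 to 0.034, H2AZ2 to 0.056 and MACROH2A2 to 0.066. Without DTP replicate 1 the median of the replacement variants was above that of all probe sets, at -0.027 against -0.056. Their order against all probe sets was therefore not stable. With each array left out H3-3A was -0.33 (without DTP replicate 2) to 0.061 (without DTP replicate 1). The second H3C6 probe set was called with spike-in centring (0.70), ribosomal protein centring (0.61), without DTP replicate 3 (0.59) and without parental replicate 1 (0.62). Of the 3′ end processing list 1 gene was called higher with either centring, and 1 lower with array weights or with all probe sets averaged, and with each array left out 0 to 1 in either direction (1 higher without DTP replicate 3; 1 lower without DTP replicates 2 or 3 or parental replicates 1 or 3). With all probe sets averaged 1 chaperone gene was called higher and NPAT was -0.22. Of the S phase genes 0 were called lower with spike-in centring. Except where a construction is named, the cause was not tested. Same-numbered arrays did not deviate together (correlations -0.12, 0.02 and -0.06), so the numbers were not taken as pairs, and with the replicate block 14 probe sets were called higher and 1 lower, and 9 genes higher and 1 lower. There are 3 arrays per group, and dim probe sets limit what can be seen of the uncalled clustered genes.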

Other observations

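Probe sets that the annotation gives to several histone genes were not among the 76 and were chosen for description after their values were seen. There were 28 of them, of which 10 (35.7%) were called higher in DTPs, against 7.56% of all probe sets, and 2 (7.14%) lower, against 4.93%. All 5 shared only by H2B genes (combinations of H2BC4, H2BC6, H2BC7, H2BC8, H2BC10 and H2BC11) were called higher, with log2 fold changes between 1.80 and 3.31. Of the 3 shared by H2AC18 and H2AC19, 2 were called higher (2.42 and 1.84) and 1 was -0.19. Of the 6 shared by H4 genes 1 was called higher (0.82, with both group means below the median of all probe sets) and 1 lower. The lower one, given to 14 H4 genes, averaged 10.40 ± 0.16 in DTPs and 11.47 ± 0.06 in parental cells (SD, n = 3 each), a log2 fold change of -1.06 (limma adjusted p 1.9e-06), the opposite direction to H4C5 and H4C8 on their own probe sets.

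The 8 probe sets shared by H3-3A and H3-3B, both of which encode H3.3, split by the further gene listed with them. The 4 listed with the pseudogene H3P6 had log2 fold changes of 0.40 to 0.44, past limma's adjusted p but under the fold minimum. The 4 listed with MIR4738 had -1.22 to -0.33, and 1 of them was called lower. CENPA, the centromeric H3 variant, which the symbol pattern does not include, had 9.18, 9.40 and 9.33 in DTPs, against 10.20, 10.08 and 10.01 in parental cells (-0.80 ± 0.08, limma adjusted p 3.7e-06) on an _x_at probe set.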
